A study of Mus musculus with 2 samples.

Results

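Liver RNA was examined for the genes that make NAD from tryptophan and that recycle it from nicotinamide, in mice of the inbred strain C57BL/6J, all male. The genes were listed by symbol, and all probe sets (groups of short array probes for 1 transcript) annotated with a single listed symbol were taken. Of 10 listed genes, 9 had such probe sets, 20 in all, among the 18193 genes with a probe set of a single symbol. The listed gene Acmsd, whose enzyme diverts an intermediate away from NAD, was not analysed here. The CR mice were calorie-restricted for 12 weeks from 8 weeks of age, with food cut by 20% for the first week and by 40% for the next 11 weeks. The AL mice ate ad libitum for the same time. Mice of both diets were wild type, housed singly and labelled as 5 months old. Liver RNA of 3 mice was pooled for each diet and hybridised to 1 Affymetrix array, so the values compare 2 pools. Without replicates there is no p-value and no estimate of variation from mouse to mouse, and having only 1 array per diet limits the precision.

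NAD is the electron carrier of fuel oxidation and the substrate of sirtuins and poly-ADP-ribose polymerases. Liver builds it de novo from tryptophan through the kynurenine pathway, which yields quinolinate, and Qprt turns quinolinate into a mononucleotide. The salvage route instead returns nicotinamide, released when NAD is consumed, to nicotinamide mononucleotide through Nampt, its rate-limiting enzyme. Both routes share an adenylylation by Nmnat enzymes, and NAD kinase then makes NADP. Tryptophan dioxygenase is a liver enzyme known for its induction by glucocorticoids, and Nampt is a known target of the circadian clock.

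The de novo genes were mostly lower in the CR pool, and the salvage gene Nampt was higher. Differences are given on the log2 scale, as CR intensity over AL intensity, so a positive value means higher in the CR pool. A gene is described by its probe set of highest mean intensity, called its brightest, unless another is named. On this rule 5 of 6 de novo genes lay below 0, from -1.23 for Tdo2 to -0.51 for Haao, and Afmid lay above 0 at 0.62. Of 12644 measured genes, 52.1% lay below 0. A gene counted as measured if the higher of its 2 intensities reached 7.38, the median of all values on both arrays. The median of the 6 de novo genes was -0.67, and that of all measured genes was -0.022. Nampt stood at 1.75.

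Of the 9 genes, 1 was at least 2-fold higher in the CR pool, Nampt, where 1.8% of measured genes were. Likewise 1 was at least 2-fold lower, Tdo2, where 2.79% of measured genes were. At 1.5-fold, 2 of the 9 were higher (Nampt and Afmid), against 6.76% of measured genes. At the same threshold 4 were lower (Tdo2, Kynu, Qprt and Kmo), against 9.49%. The brightest probe set of each of the 9 genes reached 7.38 in both pools. Of the 20 probe sets, 17 were measured and 3 lay below 7.38 in both pools.

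**Figure D1:**
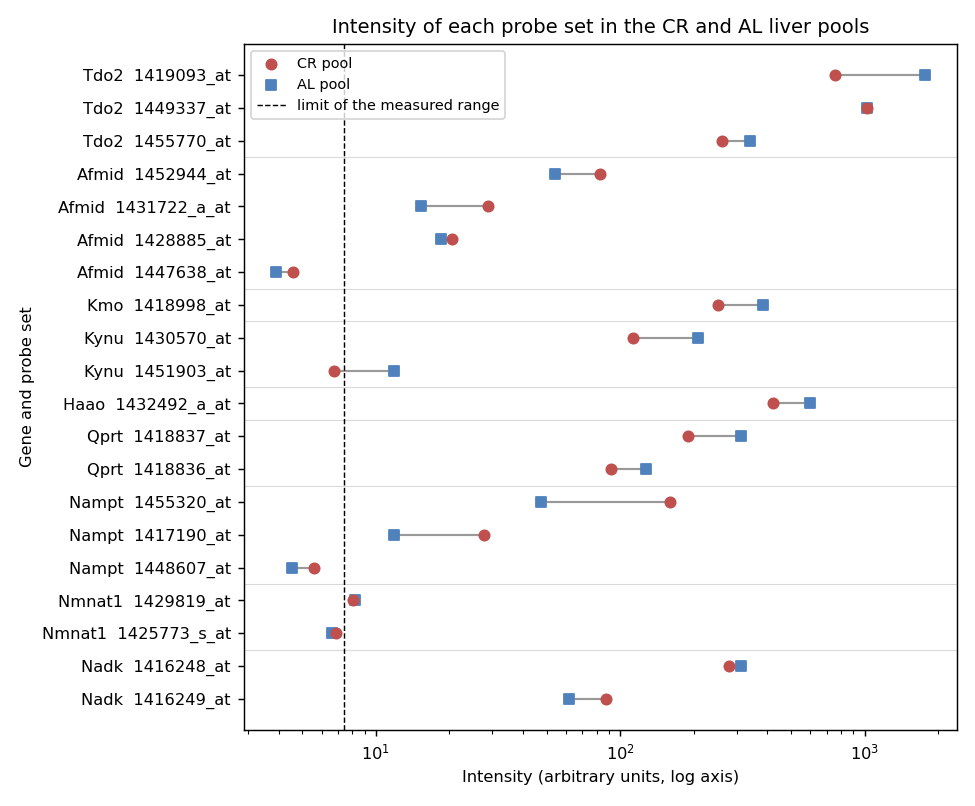
Intensity of each of the 20 probe sets in the CR pool (circles) and the AL pool (squares), on a log axis in arbitrary units, with the limit of the measured range at 7.38 as a dashed line. The CR value lies right of the AL value in the Nampt and Afmid rows and left of it in the rows of Kmo, Kynu, Haao and Qprt.

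Promoters of 4 genes are shown, chosen after their values were seen, as the 250 bases before the annotated start site. They belong to the 2 genes at least 1.5-fold higher in the CR pool (Nampt and Afmid) and to 2 of the de novo genes that were lower in it (Tdo2 and Haao). The sequences are from RefSeq on GRCm38.p6 and run 5′ to 3′ on the gene's strand. Capitals mark GGGCGG (the GC box, bound by Sp1-type factors) and AGGTCA (a half-site of nuclear receptors) on either strand. Nampt lies at chr12:32820085-32820334 and Afmid at chr11:117825669-117825918, both on the plus strand. Tdo2 lies at chr3:81975729-81975978 and Haao at chr17:83846791-83847040, both on the minus strand.
Nampt: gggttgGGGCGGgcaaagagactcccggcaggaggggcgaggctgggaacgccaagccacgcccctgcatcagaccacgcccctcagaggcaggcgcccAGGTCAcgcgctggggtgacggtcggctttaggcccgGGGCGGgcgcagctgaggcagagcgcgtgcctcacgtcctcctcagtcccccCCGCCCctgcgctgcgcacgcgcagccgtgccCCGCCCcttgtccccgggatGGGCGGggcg
Afmid: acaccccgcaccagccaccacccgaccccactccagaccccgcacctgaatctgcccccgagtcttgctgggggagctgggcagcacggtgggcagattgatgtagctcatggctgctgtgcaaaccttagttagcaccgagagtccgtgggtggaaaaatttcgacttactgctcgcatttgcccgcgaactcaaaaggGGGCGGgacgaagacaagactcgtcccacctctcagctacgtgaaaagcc
Tdo2: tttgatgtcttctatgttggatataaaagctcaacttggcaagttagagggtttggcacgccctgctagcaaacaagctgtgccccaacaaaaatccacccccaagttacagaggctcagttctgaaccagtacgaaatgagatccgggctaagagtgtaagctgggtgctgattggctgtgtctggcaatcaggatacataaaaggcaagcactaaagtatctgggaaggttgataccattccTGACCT
Haao: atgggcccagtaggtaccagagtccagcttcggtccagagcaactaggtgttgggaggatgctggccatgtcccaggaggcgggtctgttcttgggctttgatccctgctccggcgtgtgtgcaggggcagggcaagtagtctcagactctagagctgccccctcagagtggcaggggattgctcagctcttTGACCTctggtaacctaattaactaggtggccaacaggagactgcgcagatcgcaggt

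The Nampt window held the GC box 5 times, the farthest at position -244 and the nearest at -10 from the start site, and 1 AGGTCA at -151. Its GC content was 75.6%, above that of 96.4% of 32851 promoter windows. Afmid had 1 GC box, at -50, and a GC content of 59.6%. Tdo2 and Haao had no GC box. Tdo2 had 1 AGGTCA, at -6, and a GC content of 46.4%, and Haao had 1 AGGTCA, at -58, and a GC content of 58.4%. Neither motif was in the windows of Kmo and Qprt, which were also lower in the CR pool. The 2 lower genes printed are thus those with an AGGTCA match. AGGTCA was also in the window of Acmsd, at -232, a gene without RNA values here. The GC box was also in both windows of Nmnat1 and in 1 of 2 of Nadk. These genes had small differences on their brightest probe sets, and Nmnat1 was close to the limit of the measured range. Of all windows, 32.7% held a GC box and 14.0% held AGGTCA. The E-box CACGTG, the site of the clock factors, was present in 6.02% of all windows, and among the listed genes in 1 of the 2 Nadk windows, at -40. The forkhead site GTAAACA and the cAMP response element TGACGTCA were present in 3.17% and 1.55% of all windows and had no match in the windows of the listed genes. Both strands were searched, and no match in these windows overlapped one of another motif. Of the 10 listed genes, 9 had at least 1 window, and Kynu had none. A match is a run of letters and not a shown binding site, and no match says only that these letters are not in this window.

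Tdo2, tryptophan dioxygenase, opens the indole ring of tryptophan and starts the kynurenine pathway. Its brightest probe set, 1419093_at, had an intensity of 755 in the CR pool and 1768 in the AL pool, a difference of -1.23. Another, 1449337_at, had 1025 in the CR pool and 1022 in the AL pool, a difference of 0.0041. The third, 1455770_at, had 261 in the CR pool and 339 in the AL pool, a difference of -0.38. The 2-fold difference of Tdo2 thus rested on 1 of 3 probe sets, and the 2 that disagreed most are annotated to the same source transcript. The 3 differences spanned 1.23, where the median span was 0.47 over the 4924 genes with several measured probe sets. Their mean was -0.53.

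Afmid, the formamidase that releases kynurenine, was the 1 de novo gene that was higher in the CR pool. Its brightest probe set had 82.7 in the CR pool and 53.8 in the AL pool, a difference of 0.62. Another stood at 0.91, with 28.8 in the CR pool and 15.3 in the AL pool. The third measured probe set stood at 0.14, with 20.5 in the CR pool and 18.5 in the AL pool. All 3 lay above 0, by amounts that spanned 0.77. Scaling the arrays on all hybridisation controls (spiked transcripts) turned the Afmid difference to -0.40.

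The 4 enzymes between kynurenine and the mononucleotide all had lower values in the CR pool. Kmo, the monooxygenase that hydroxylates kynurenine, had 250.5 in the CR pool and 386 in the AL pool, a difference of -0.62 on its only probe set. Kynu, the kynureninase that cleaves off alanine, had 113 in the CR pool and 209 in the AL pool, a difference of -0.88. The other Kynu probe set had 11.9 in the AL pool and lay below the measured range in the CR pool, at least 1.61-fold lower. Both Kynu probe sets were therefore on the same side.

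Haao, the dioxygenase that makes the direct precursor of quinolinate, had 421 in the CR pool and 601 in the AL pool, a difference of -0.51. It had 1 probe set, of a type that can match several transcripts of a gene. Qprt, which commits quinolinate to NAD, had 189 in the CR pool and 311 in the AL pool, a difference of -0.72. Its other probe set stood at -0.48, with 91.6 in the CR pool and 128 in the AL pool. The CR values of these 4 genes ran from 54.2% of the AL value for Kynu to 70.1% for Haao. Over all 12 measured de novo probe sets, 8 lay below 0 and 4 above, with a median of -0.50. The 8 include the dimmer Kynu probe set, which was measured only through the AL pool. The 4 above 0 were the 3 of Afmid and 1 of Tdo2, and 52.2% of all measured probe sets lay below 0.

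Nampt, nicotinamide phosphoribosyltransferase, stood apart from the other members. Its brightest probe set, 1455320_at, had 159 in the CR pool and 47.3 in the AL pool, 3.37-fold higher. A dimmer one, 1417190_at, had 27.7 in the CR pool and 11.8 in the AL pool, a difference of 1.23. The third, 1448607_at, lay below the measured range in both pools, with 5.57 in the CR pool and 4.53 in the AL pool. Both measured probe sets were thus at least 2-fold higher, where 1.99% of all measured probe sets were, and 603 of 20316 measured probe sets, or 2.97%, were at least 2-fold lower. Nampt was at rank 51 from the highest of the 12644 measured genes.

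The measured genes were split into 10 classes of equal size by mean intensity. Among genes in the class of Nampt, the central 95% of differences ran from -1.18 to 1.09, and Nampt lay above it. The other 8 members lay inside the range of their own class. For Tdo2, in the brightest class, that range was -1.43 to 1.04. For Kynu and Qprt, in the class below it, that range was -1.10 to 1.14. These ranges are the spread between genes, which includes any effect of diet, and are not the error of a gene.

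**Figure D2:**
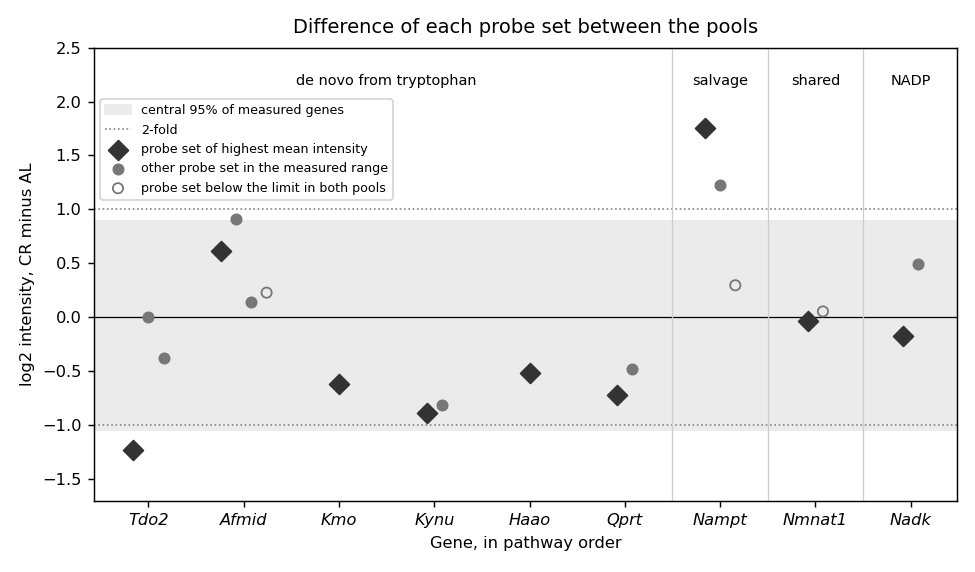
Difference in log2 intensity, CR minus AL, for each probe set, in the order of the pathway. Diamonds are the brightest probe set of a gene, filled circles other measured ones and open circles those below 7.38 in both pools. The grey band is the central 95% of measured genes, from -1.04 to 0.89, and the dotted lines are 2-fold. Both measured Nampt probe sets lie well above the band, 1 Afmid probe set at 0.91 lies at its upper edge, and 1 of 3 Tdo2 probe sets lies below it.

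The salvage gene and 5 of the 6 de novo genes had differences of opposite direction, while Afmid shared the direction of Nampt. Nampt exceeded the de novo median by 2.42 on the log2 scale, a 5.37-fold change of the one relative to the other. This contrast is taken within the same 2 arrays, so it does not depend on how they are scaled to each other. With all probe sets of each gene averaged, those below the measured range included, it was 1.66. The smaller measured Nampt difference, 1.23, exceeded the largest de novo one, 0.91 in Afmid, by 0.32. Salvage is represented here by 1 gene, and no test of the contrast was possible with 1 pool per diet.

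The shared gene Nmnat1 and the step to NADP showed small differences on their brightest probe sets. Nmnat1, the nuclear adenylyltransferase that completes NAD, had 8.03 in the CR pool and 8.21 in the AL pool, a difference of -0.032. Both values were close to the limit of 7.38, so a change in Nmnat1 was not well measurable here. Its other probe set was below the limit in both pools.

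Nadk, the cytosolic NAD kinase, had 278 in the CR pool and 313 in the AL pool, a difference of -0.17. The other Nadk probe set stood at 0.50, with 87.4 in the CR pool and 61.9 in the AL pool. The probe sets of Nadk thus lay on opposite sides of 0, although both are annotated to the same source transcript. Of the 6 members with several measured probe sets, 2 had differences of both signs, Nadk and Tdo2. Over the series 52.7% of genes with several measured probe sets did.

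**Figure D3:**
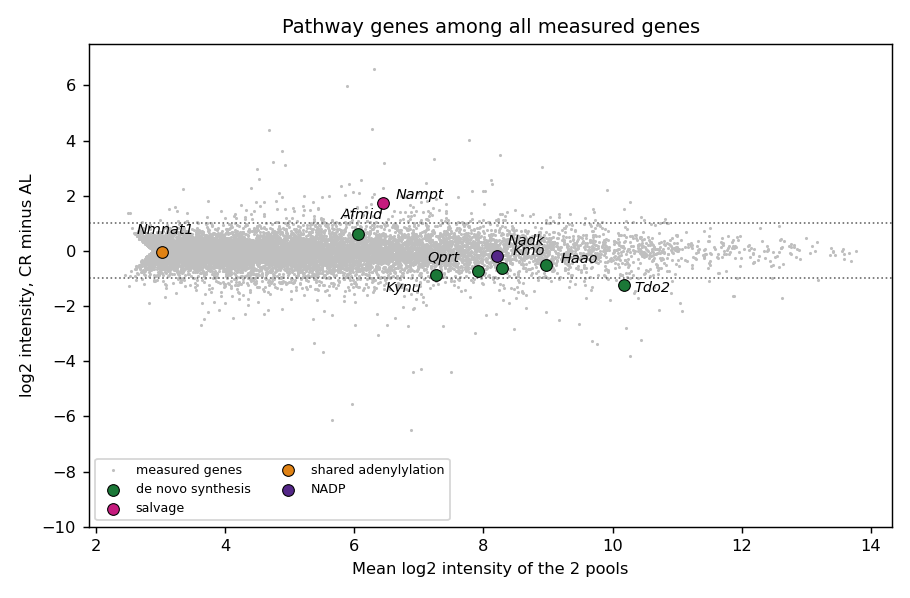
Difference in log2 intensity, CR minus AL, against the mean log2 intensity of both pools, for the 12644 measured genes (grey) and the 9 genes described here (coloured by their place in the pathway). Dotted lines are 2-fold. Nampt at 1.75 and Tdo2 at -1.23 lie outside the lines, and Nmnat1 lies at the dim edge of the measured range.

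Genes that surround these steps were taken from 9 lists of 61 genes in all, of which 58 had a probe set and 50 were measured. Their differences had a median of -0.20, with 31 below 0 and 18 above, where 52.1% of measured genes lay below 0. Of the 50, 2 were at least 2-fold higher, against 1.8% of measured genes, and 3 at least 2-fold lower, against 2.79%. From each list the text names the genes of at least 2-fold and the 2 of largest absolute difference.

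Other enzymes that act on kynurenine or tryptophan were lower in the CR pool. All 5 measured genes of that list lay below 0, with a median of -0.62. Kyat1, an aminotransferase that makes kynurenic acid and so leads away from NAD, had 17.4 in the CR pool and 96.0 in the AL pool, a difference of -2.46. Its 4 measured probe sets ran from -2.46 to -0.69, all below 0, and the brightest is of a type that may match more than 1 transcript. Ido2, a paralog of the dioxygenase Ido1, had 8.64 in the CR pool and 13.3 in the AL pool, a difference of -0.62. The CR value of Ido2 was close to the limit of 7.38. Got2, the mitochondrial aspartate aminotransferase that also accepts kynurenine, stood at -0.62 too, with 559 in the CR pool and 858 in the AL pool. Ido1 was not in the measured range in either pool.

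The enzymes below Acmsd that carry the diverted carbon to glutarate breakdown lay on both sides of 0. Dhtkd1, a ketoadipate dehydrogenase subunit, stood at 0.44, and Gcdh, glutaryl-CoA dehydrogenase, at -0.24. Among other fates of tryptophan, the decarboxylase Ddc stood at -0.94, with 209 in the CR pool and 402 in the AL pool. The indolethylamine methyltransferase Inmt stood at 0.57, with 1581 in the CR pool and 1066 in the AL pool. The serotonin-forming hydroxylases Tph1 and Tph2 were not measured.

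The amino acid transporter list had a median of -0.26 over 4 genes. Slc7a8, a neutral amino acid exchanger, was below the measured range in the CR pool, at least 1.32-fold lower. The aromatic amino acid transporter Slc16a10 stood at -0.29.

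Other entries to NAD did not share the direction of Nampt as a group. Of 5 measured genes, 2 lay above 0 and 3 below, with a median of -0.30 and none at 2-fold. Nmrk1, which phosphorylates nicotinamide riboside, stood at 0.46, with 62.6 in the CR pool and 45.5 in the AL pool. Pnp, the purine nucleoside phosphorylase that also splits nicotinamide riboside, stood at -0.93, with 206 in the CR pool and 393 in the AL pool. Nmrk2 and Nmnat3 were not measured.

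Of the 4 genes of NADP metabolism beside Nadk, Noct had the largest difference, 0.99, with 232 in the CR pool and 117 in the AL pool. Noct encodes nocturnin, a clock-controlled phosphatase of NADP. The lowest of the list's values was -0.13, for Hddc3, whose human counterpart is an NADPH phosphatase. Hddc3 had 7.87 in the CR pool and 8.61 in the AL pool, close to the limit of 7.38. The mitochondrial kinase Nadk2 stood at -0.016 on its brightest probe set, but its 4 measured probe sets ran from -1.69 to 0.48, a spread singled out after its values were seen.

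Enzymes that consume NAD lay within 2-fold. Of 11 measured, 4 lay above 0 and 7 below, with a median of -0.28. Parp14, an ADP-ribosyltransferase, stood at -0.61 and the sirtuin Sirt7 at -0.53.

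The list for nicotinamide disposal and NAD hydrolysis held 2 of the 3 genes at least 2-fold lower. Aox3 and Aox1, aldehyde oxidases that oxidise methylnicotinamide among many substrates, were both lower. Aox3 had 35.9 in the CR pool and 232 in the AL pool, a difference of -2.69. Aox1 had 69.8 in the CR pool and 184 in the AL pool, a difference of -1.40. Each had 1 measured probe set, and close aldehyde oxidase paralogs may share probes. The list's median over 8 genes was -0.15, with 3 above 0 and 5 below. Among the 3 was the nicotinamide methyltransferase Nnmt at 0.57, singled out after its value was seen.

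Of 7 measured genes for factors known to regulate members, 2 were at least 2-fold higher, against 1.8% of measured genes. Foxo1, a fasting-activated forkhead factor, had 610.0 in the CR pool and 246 in the AL pool, a difference of 1.31, with other measured probe sets down to 0.48. Ppara, the fatty acid-sensing nuclear receptor, had 390.3 in the CR pool and 190.5 in the AL pool, a difference of 1.04, and its 3 probe sets reached 1.48. The list's median was 0.39, with 5 above 0 and 2 below. Outside the naming rule, the clock and glucocorticoid factors are given too, since the background cites them. Clock stood at 0.39, with measured probe sets from -0.35 to 0.39, and Arntl at -0.27. Nr1d1 was not measured. Nr3c1, the glucocorticoid receptor, stood at 0.20, with measured probe sets from -0.21 to 0.25.

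**Figure D4:**
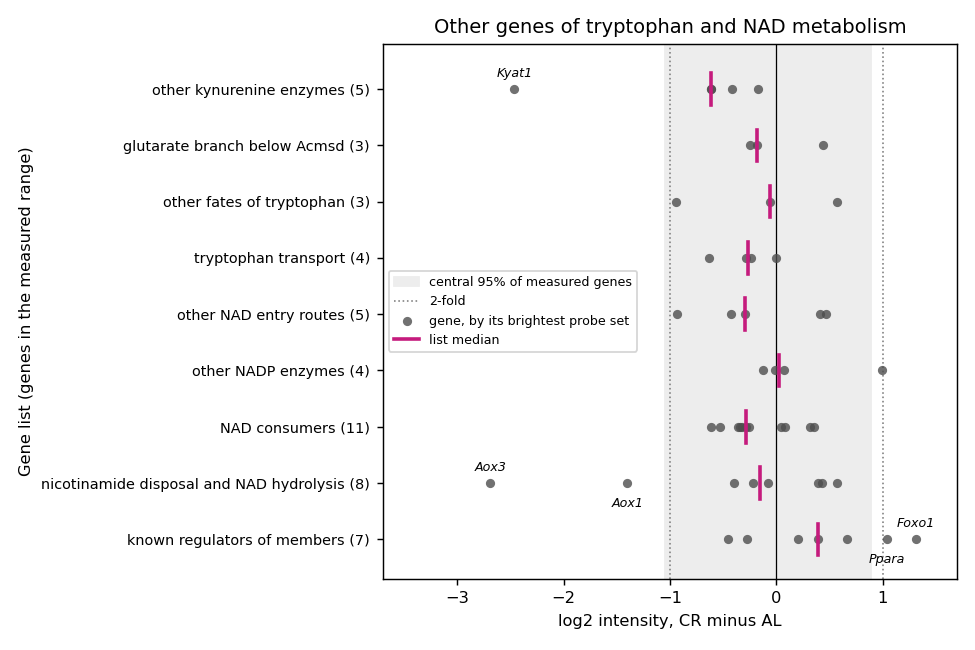
Difference in log2 intensity, CR minus AL, for the measured genes of 9 further lists, each point a gene by its brightest probe set and each coloured bar the list's median. The grey band is the central 95% of measured genes, and the dotted lines are 2-fold. Kyat1, Aox3 and Aox1 lie beyond 2-fold on the lower side, and Foxo1 and Ppara on the higher side.

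Cell markers and controls moved with the diet in part. Of 5 measured hepatocyte markers none reached 2-fold on its brightest probe set. Their summed intensity was 45314 in the CR pool and 46762 in the AL pool. The 4 measured probe sets of the marker Ttr ran from -1.60 to -0.066. All 7 measured Kupffer cell and monocyte markers lay below 0 on their brightest probe sets, where 52.1% of measured genes did. Their median was -0.57, and Cd68 was not measured. Timd4, the lowest at -0.88, counted as measured only through the AL pool, so its side of 0 was fixed. Another measured probe set of Csf1r stood at 0.18. The summed intensity of all 8, Cd68 included, was 1745 in the CR pool and 1973 in the AL pool. Of 3 measured neutrophil markers 2 were at least 2-fold lower, against 2.79% of measured genes, and Mpo was not measured. These 2, S100a8 and S100a9, had 10.9 and 10.2 in the CR pool, close to the limit of 7.38. The sum of the 4 with a probe set, Mpo included, was 42.2 in the CR pool and 116 in the AL pool. Macrophages are known to express Kmo and Kynu too, and the part of these cells in the lower values was not tested. In such bulk RNA, fewer cells of a type and less RNA per cell cannot be told apart. The endothelial, stellate, cholangiocyte and lymphocyte lists had medians from -0.30 to 0.29 and none at 2-fold.

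All 6 control probe sets for beta-actin and Gapdh were lower in the CR pool, from -1.61 to -0.67. The ratio of 3′ to 5′ signal for beta-actin was 89.7 in the CR pool and 83.5 in the AL pool, and for Gapdh 53.2 in the CR pool and 46.9 in the AL pool. In both pools the 3′ signal of these transcripts thus far exceeded the 5′ signal. The part of this 3′ bias and of the lower controls in the differences above was not tested. Nor was their part in the disagreement between probe sets of a gene.

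All values are relative to the typical gene, since the authors' normalization sets the arrays on one scale. Scaling on all hybridisation controls moved the median of measured genes to -1.04, with 33 genes at least 2-fold higher and 6857 lower, against 227 and 353. On the cre control alone the median was -0.40, with 96 higher and 1030 lower. The shifts were 1.02 and 0.37, so any positive difference smaller than these turned negative. Nampt stayed above 0 on both, at 0.74 and 1.38.

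**Figure D5:**
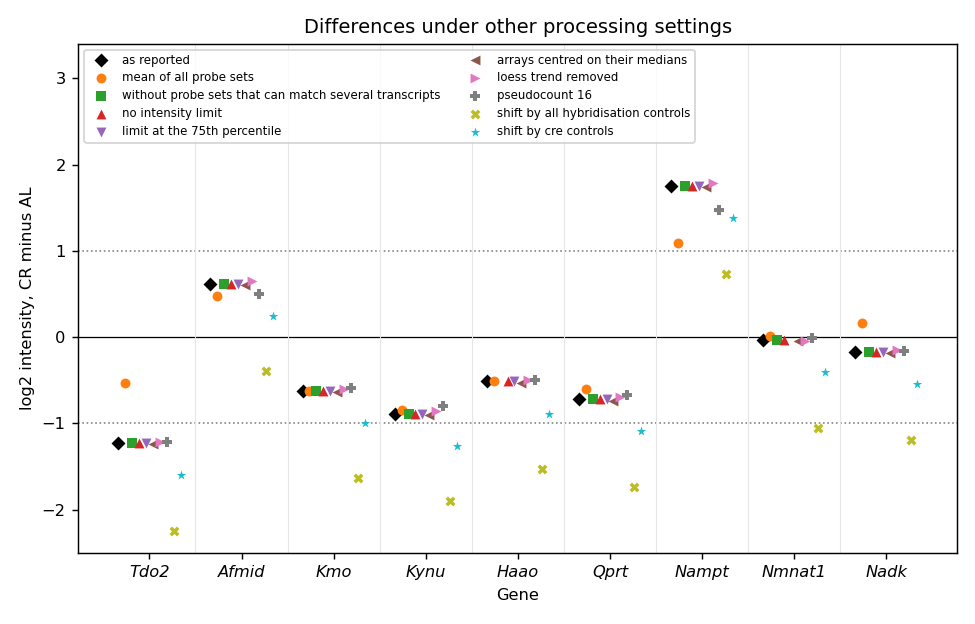
Difference in log2 intensity, CR minus AL, of each gene as reported (black diamonds) and under 9 other processing settings (other symbols), with dotted lines at 2-fold. Nampt stays above 0 and Tdo2, Kmo, Kynu, Haao and Qprt below 0 under each setting that gave a value, whereas Afmid, Nmnat1 and Nadk each cross 0 under 1 of them.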

How the data were processed

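The authors deposited 1 column of intensity values per pool, and the submitters' processing notes name RMA, which corrects background, normalizes arrays to each other and summarises probe sets. Per the labels' protocols, Trizol RNA of 3 mice was pooled in equal amounts and labelled as biotin cRNA. The values reached 14045 in the CR pool and 18092 in the AL pool, a linear scale. Not given in the sources used here are the version and options of RMA, any rescaling after it and the genome build of the array design. No column belonged to another sample.

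Intensities were turned to log2 and the AL pool was subtracted from the CR pool. Gene names came from the platform annotation. Of 45101 probe sets, 34945 had a single symbol, controls left out. Each gene took the values of its brightest probe set, by mean log2 intensity, and counted as measured from an intensity of 7.38, the median of all values. Of 18193 genes, 5549 were not measured. Thresholds of 2-fold and 1.5-fold are rules of size. The text names all members with all their probe sets. Of each other list it names genes of at least 2-fold and the 2 of largest absolute difference. The members and lists were chosen with earlier results of these data known. The steps were tested on simulated data with planted differences. Alternatives are given in the closing section. Software was matplotlib 3.10.9, statsmodels 0.14.6, pandas 2.3.3 and numpy 2.4.6 under Python 3.11.15.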

Additional observations from a re-analysis of the deposited data

How the results depend on the processing

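Settings other than those reported were averaging a gene's probe sets, dropping probe set types that may match more than 1 transcript, no intensity limit, a limit at the 75th percentile (21.0), centring on the median, removing a loess trend (span 0.4), a pseudocount of 16, a shift by all hybridisation controls or by cre, and a 1.5-fold threshold. A value counted as kept if it moved by less than 0.29, the median SD between measured probe sets of one gene. Of 79 member differences so recomputed, 58 kept their value, 21 moved and 3 changed sign, and no 2-fold difference changed sign. The 3 were Afmid on all hybridisation controls (-0.40) and, with probe sets averaged, Nadk (0.16) and Nmnat1 (0.011). Much of the tally was fixed by the settings. The intensity limits and dropped probe set types left each member that kept a value on the same brightest probe set. Centring moved all members by the same small amount, and the shifts, 1.02 and 0.37, moved all by more than 0.29. Averaging, loess and the pseudocount could act gene by gene, and only averaging moved members: Tdo2 (-0.53), Nampt (1.09) and Nadk (0.16). The count of members at least 2-fold higher was 0 on all hybridisation controls and 2 at 1.5-fold, against 1. The count at least 2-fold lower was 0 with probe sets averaged, 7 on all hybridisation controls, 3 on cre and 4 at 1.5-fold, against 1. The median over member probe sets, -0.17, moved to -1.19 under the shift by all hybridisation controls and to -0.55 under that by cre, while it was -0.28 at the 75th percentile limit and -0.014 when all 20 probe sets entered without a limit. The de novo median was -1.69 and -1.04 under the same shifts, which move all genes by one amount. The difference of Nampt from the de novo median was 1.66 with probe sets averaged, where dim probe sets count equally, and 2.10 with the pseudocount, which shrinks dim values. Over all measured genes, 227 were at least 2-fold higher and 353 lower, against 110 and 230 with probe sets averaged, 134 and 156 with the pseudocount, 33 and 6857 on all hybridisation controls, 96 and 1030 on cre, and 855 and 1200 at 1.5-fold. Haao gave no value when its probe set type was dropped, and Nmnat1 none at the stricter limit. Leaving out a replicate was not possible with 1 array per diet. No paired analysis was possible because each diet had 1 pool. Signal close to the limit of the measured range restricts Nmnat1 and the dimmer Kynu and Nampt probe sets. The same holds for genes of the other lists such as Ido2 and Hddc3.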
